A study of Mus musculus with 2 samples.

Results

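The genes described here make ribosomes: they transcribe the ribosomal RNA genes with RNA polymerase I (Pol I), modify the new transcript, and fold, cut and export the small and the large subunit. The set held 60 mouse genes, 6 of Pol I transcription, 9 of small nucleolar ribonucleoprotein particles (snoRNPs), 20 of small subunit assembly, 21 of large subunit assembly and 4 that act at several steps. The genes were chosen as a pathway from measured differences of the same arrays that are described here, so their direction and size are a description with no test. Each gene was read from its brightest probe set that the platform annotation gives to 1 gene alone, which left 59 of the 60, among 18193 genes named this way and 11920 above the floor, an intensity of 78.4 that the higher of a gene's 2 values had to reach. The floor removed no member, and the remaining gene, Mrto4, had no probe set of its own.

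Ribosome assembly begins in the nucleolus, where Pol I copies the tandem rRNA genes into 1 long precursor. Box C/D snoRNPs methylate this precursor and box H/ACA snoRNPs convert chosen uridines to pseudouridine, while large sets of transient assembly factors cut it, fold it and add the ribosomal proteins before each subunit leaves the nucleus. In dividing and activated myeloid cells the pathway follows growth signals, and many of its genes are known targets of the transcription factor MYC.

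Gene expression was measured in 2 bone marrow cultures, 1 for each siRNA. The question was which genes change when lnc-C/EBPβ, a long non-coding RNA that the labels name lncMDSC, is knocked down. Both groups were fresh bone marrow of C57BL/6 mice, carried no named mutation and were grown with GM-CSF and IL-6 over 4 days towards myeloid-derived suppressor cells (MDSCs). They differed in the siRNA, a control siRNA or silncMDSC, which is directed at lncMDSC. The RNA came from whole cultures with no sort named in the labels, and the number of mice behind each culture is not given in the sources read here.

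There was 1 Affymetrix Mouse Genome 430 2.0 array per group, so no difference has a replicate check and no p or error can be given, and the number of arrays limits the precision. The array medians were 77.9 in control and 79.0 in silncMDSC, 97.6% of genes above the floor lay within 1.5-fold, and the robust SD of all differences (the scaled median absolute deviation, which mixes probe noise with real differences) was 0.18. No probe set is named for lncMDSC, so the knockdown itself was not analysed here. Of the neutrophil markers 12 of 14 were above the floor, with summed intensities of 78128 and 75098, and of the monocyte markers 8 of 9, at 15204.5 and 13916. The monocyte marker Cx3cr1 was below the floor in control (67.3). Ly6g and Ly6c2, of the Ly6 antigens by which the paper defines MDSC subsets, had no probe set of their own. Macrophage markers (11 of 12) and dendritic cell markers (10 of 10) also passed the floor, so these values do not identify the labelled cells. All differences are log2(intensity + 1) of silncMDSC minus control, and folds are on that scale, which understates the folds of dim genes.

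The ribosome assembly genes were lower in the silncMDSC culture almost throughout. Of 59 members, 57 were below control, where 50.7% of all genes above the floor were, and 26 were at least 1.5-fold lower, where 1.42% of all genes were. None was at least 1.5-fold higher, a call that 0.948% of all genes received, and 2 were at least 2-fold lower, against 0.134% of all genes. Nothing is read from these gaps, because the members were picked from this contrast. The median difference of the members was -0.52, while that of all genes was -0.002 and the central 95% of all genes ran from -0.48 to 0.40. In the order of all genes from the lowest difference up, 18 members were among the first 100 and 41 among the first 500. Members made up 15.4% of the 169 genes at least 1.5-fold lower.

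The lower values were not limited to dim or to bright probe sets. The 19 dimmest members, with a mean intensity of at most 328, had a median difference of -0.48 and 9 of them were at least 1.5-fold lower. The 21 in the middle had -0.52 and 7, and the 19 brightest, from 599 upwards, had -0.63 and 10. At the edge of the 1.5-fold call, Utp20 lay just inside with 275 in control and 181 in silncMDSC (-0.60), and Ddx21 just outside with 682 and 459 (-0.57). Because whole cultures were used, fewer cells with high expression and less RNA per cell cannot be told apart.

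**Figure D1:**
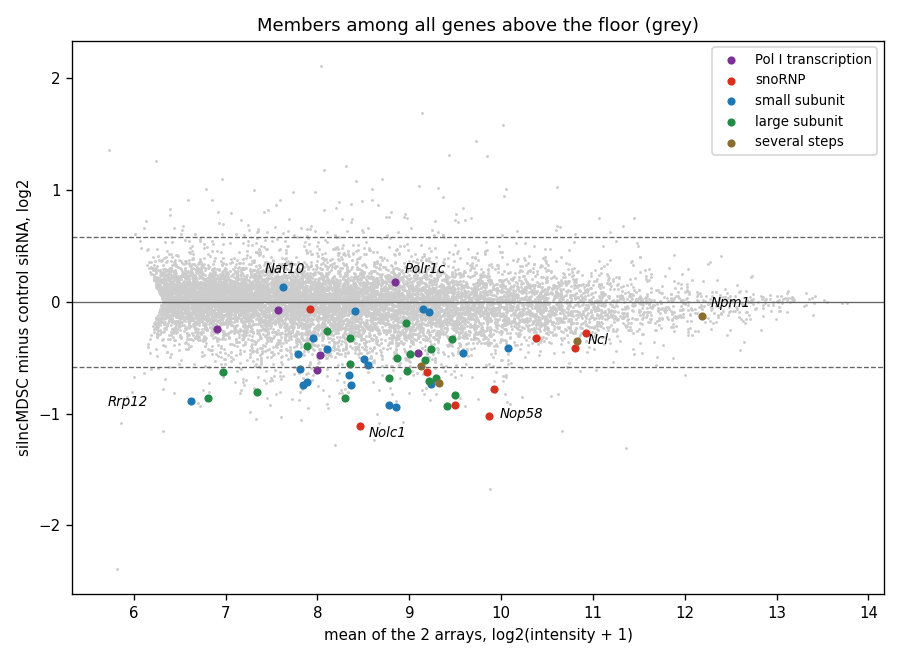
Grey points are the 11920 genes that passed the floor and coloured points the 59 members by step, plotted by the mean of both arrays (x axis, log2(intensity + 1)) and by silncMDSC minus control (y axis, log2). Dashed lines mark 1.5-fold, and the members lie below 0 at every level except Polr1c (0.18) and Nat10 (0.13).

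Because nearly all members lay on the same side of 0, the stretch in front of their start sites is shown for 6 of them, taken from RefSeq (GRCm38.p6) as the 250 bases before the annotated start on the gene's own strand. Nolc1 and Nop58 are shown because they were the 2 members at least 2-fold lower, and Nop2, Nmd3, Utp18 and Rrn3 because they alone among the 51 members with a RefSeq window held the canonical E-box CACGTG, which MYC with MAX and other factors can bind, in this stretch. Capitals mark the E-box. The stretches are Nolc1 at chr19:46075597-46075846, Nop58 at chr1:59684756-59685005, Nop2 at chr6:125131633-125131882, Nmd3 at chr3:69721805-69722054 and Rrn3 at chr16:13780449-13780698, each on the plus strand, and Utp18 at chr11:93885767-93886016 on the minus strand.
Nolc1: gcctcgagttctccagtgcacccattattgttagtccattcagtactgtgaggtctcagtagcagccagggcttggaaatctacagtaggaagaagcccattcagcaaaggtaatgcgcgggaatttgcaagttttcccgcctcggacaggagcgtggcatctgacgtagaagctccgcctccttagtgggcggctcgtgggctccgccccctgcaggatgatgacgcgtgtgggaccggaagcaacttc
Nop58: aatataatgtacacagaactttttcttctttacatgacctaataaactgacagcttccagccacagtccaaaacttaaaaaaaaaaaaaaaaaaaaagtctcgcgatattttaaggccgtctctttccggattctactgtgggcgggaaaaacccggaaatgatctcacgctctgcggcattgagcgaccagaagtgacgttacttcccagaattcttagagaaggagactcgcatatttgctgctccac
Nop2: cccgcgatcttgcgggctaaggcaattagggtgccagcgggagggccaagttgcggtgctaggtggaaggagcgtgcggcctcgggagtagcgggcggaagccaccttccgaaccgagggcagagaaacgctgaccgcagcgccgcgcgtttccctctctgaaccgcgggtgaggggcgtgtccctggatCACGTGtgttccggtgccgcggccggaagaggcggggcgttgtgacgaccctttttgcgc
Nmd3: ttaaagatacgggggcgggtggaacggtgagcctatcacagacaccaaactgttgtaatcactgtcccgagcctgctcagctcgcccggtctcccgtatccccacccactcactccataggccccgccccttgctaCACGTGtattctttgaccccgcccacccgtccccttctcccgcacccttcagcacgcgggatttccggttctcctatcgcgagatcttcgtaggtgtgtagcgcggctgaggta
Utp18: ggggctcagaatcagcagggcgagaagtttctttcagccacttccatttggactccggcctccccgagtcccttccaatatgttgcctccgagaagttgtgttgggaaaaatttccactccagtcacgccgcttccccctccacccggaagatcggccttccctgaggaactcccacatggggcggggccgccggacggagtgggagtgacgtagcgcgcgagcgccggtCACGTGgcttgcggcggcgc
Rrn3: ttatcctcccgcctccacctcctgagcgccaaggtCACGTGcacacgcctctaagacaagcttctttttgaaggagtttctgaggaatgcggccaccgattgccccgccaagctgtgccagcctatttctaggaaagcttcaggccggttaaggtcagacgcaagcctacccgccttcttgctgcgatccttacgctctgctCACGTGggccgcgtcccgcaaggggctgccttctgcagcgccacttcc

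The E-box began 60 bases before the start of Nop2, 114 before that of Nmd3 and 20 before that of Utp18, and Rrn3 held it at 215 and at 48. CACGTG reads the same on both strands, so 1 search covered both. In windows from 250 bases before to 50 after the start, it stood in 9 of 51 members with a window (17.6%), against 8.09% of all 27025 genes with a window and 11.7% of the 9640 of these above the floor. The other 5 members, Tsr1, Wdr43, Ltv1, Utp20 and Pes1, held it only after the start. It stood in 6 of 24 members at least 1.5-fold lower and in 3 of 26 other members that could be read, in 5 of 17 small subunit genes, 3 of 17 large subunit genes, 1 of 6 Pol I genes, 0 of 8 snoRNP genes and 0 of 3 that act at several steps. The share in members was close to that in assembly genes that are not members, with 14 of 83 (16.9%). Among 39 ribosomal protein genes it was 10.3% and among 13 genes of cycling cells 7.69%. The median share of G and C bases was 59.3% in members, 52.7% in all genes with a window and 60.3% in genes above the floor. A match describes these letters and is neither a bound site nor a cause, and no match says only that the letters are not in the window. Fbl, Wdr36, Dcaf13, Rrp12, Gnl2, Gnl3l, Rrs1, Bop1 and Npm1 were not matched to a window.

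Of the 6 Pol I genes, 5 were below control, 1 of them at least 1.5-fold, and the median was -0.35. Polr1a, the catalytic subunit of Pol I, measured 315 in the control array and 206 in the silncMDSC array, a difference of -0.61. Rrn3, the initiation factor that passes growth signals to Pol I, had 308 and 221 (-0.48), and Ubtf, which binds along the rRNA genes and keeps them open, had 641 and 468 (-0.45). Polr1e, a subunit that only Pol I has, had 129 and 109 (-0.25).
Polr1b, which forms the active centre together with Polr1a, was the member nearest 0 in this step with 194 and 185 (-0.07). Polr1c, which Pol I and Pol III share, was the 1 gene of this step above control, with 433 and 489 (0.18), and its other probe set gave 0.13.

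The snoRNP genes held the members farthest apart. All 9 were below control, 5 of them at least 1.5-fold, with a median of -0.63. Nolc1, a chaperone that binds both classes of snoRNP, fell from 517 to 239 between control and silncMDSC, a 2.16-fold gap, and stood at place 8 from the lowest of all genes.
Among the box C/D core proteins, Nop58 had 1326 and 653, 2.03-fold lower, and Nop56 had 1275 and 741 (-0.78). Fbl, the fibrillarin methyltransferase of the same particles, differed by less, with 1497 and 1193 (-0.33). The 2 scaffold proteins were thus past 1.5-fold and the enzyme was not, and the median of the 3 was -0.78.
Among the box H/ACA core proteins, the pseudouridine synthase Dkc1 had 997 and 526 (-0.92) and its partner Gar1 had 729 and 470 (-0.63). Nhp2 had 2059 and 1545 (-0.41) and Nop10 had 2136 and 1764 (-0.28). These 4 core proteins had a median of -0.52, with 2 of 4 past 1.5-fold. Rrp9, which binds the box C/D RNA that guides early cuts of the precursor, was nearest 0 with 247 and 236 (-0.06).

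**Figure D2:**
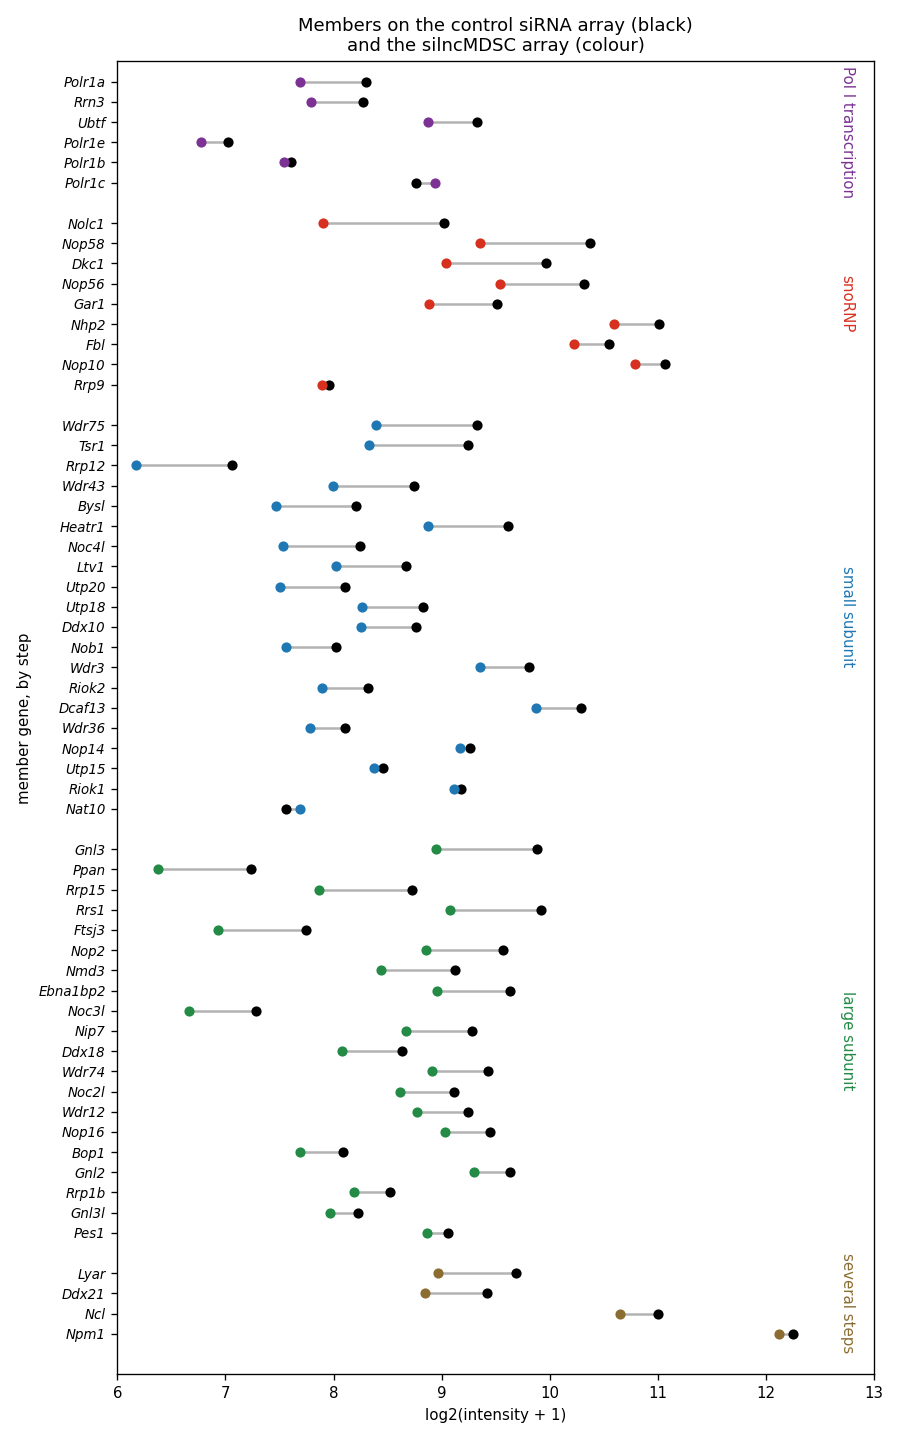
Each row is 1 of the 59 members, grouped by step, with log2(intensity + 1) on the x axis, the control siRNA array in black and the silncMDSC array in colour. The coloured point lies left of the black point in 57 rows, farthest for Nolc1 (-1.11) and Nop58 (-1.02), and right of it for Polr1c and Nat10.

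Small subunit assembly genes were lower in 19 of 20 cases, 9 of them at least 1.5-fold, with a median of -0.54. The t-UTP proteins, which load first onto the nascent rRNA and are needed for its transcription, had 3 of 4 members past 1.5-fold and a median of -0.74. Wdr75 had 641 in control and 334 in silncMDSC (-0.94), Wdr43 had 427 and 254 (-0.75), and Heatr1 had 781 and 468 (-0.74). Utp15, of the same complex, was close to level on its brightest probe set with 350 and 330 (-0.08).
Later factors of the small subunit were lower as well, with 4 of 7 past 1.5-fold and a median of -0.65. The GTPase-like factor Tsr1 had 605 and 319 (-0.92). Bysl, which joins the early particle and leaves late, had 295 and 176 (-0.74), and the export-linked factor Ltv1 had 407 and 259 (-0.65). Rrp12, a HEAT-repeat protein of export, had 132.5 and 71.3 (-0.88). Rrp12 was the 1 member below the floor on the silncMDSC array, so its size is less certain. Nob1, the nuclease that makes the last cut of the small subunit rRNA, differed by -0.47, and the kinases Riok2 and Riok1 by -0.43 and -0.07.
Of the 13 genes of the early particle, 5 were past 1.5-fold, with a median of -0.51. Besides the t-UTP members they were Noc4l, with 302 and 184 (-0.72), and the scaffold Utp20. Its other members below control included the WD-repeat proteins Utp18 (-0.56), Wdr3 (-0.46), Dcaf13 (-0.41) and Wdr36 (-0.33), and the RNA helicase Ddx10 (-0.51). Nop14, which partners Noc4l, was at -0.10. Nat10, which acetylates the small subunit rRNA, was the 1 small subunit gene above control with 188 and 206 (0.13), on a probe set that can cross-hybridise. Among members past 1.5-fold, the probe sets read for Noc4l, Tsr1, Nmd3, Rrs1, Nop56 and Gar1 are also of such kinds. Without such probe sets Noc4l was at -0.41, short of 1.5-fold, and Tsr1 and Gar1 could not be read. Nmd3, Rrs1 and Nop56 stayed past 1.5-fold.

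All 20 large subunit genes that could be read were below control, 10 of them at least 1.5-fold, with a median of -0.58. Gnl3, the GTPase nucleostemin, was the farthest apart with 942 in control and 492 in silncMDSC (-0.94). The related GTPases Gnl2 and Gnl3l differed by -0.33 and -0.26.
Of the other members past 1.5-fold, the nucleolar assembly factors Ppan had 150 and 81.8 (-0.86), Rrp15 423 and 233 (-0.86), and Ebna1bp2 794 and 495 (-0.68). Rrs1, which helps to bring in the small 5S particle, had 964 and 539 (-0.84). The rRNA methyltransferases followed, with Ftsj3 at 213 and 121 (-0.81) and Nop2, a cytosine methyltransferase, at 756 and 462 (-0.71).
Noc3l had 155 and 100.2 (-0.63), its partner in the Noc family Noc2l differed by -0.50, and Nip7 had 621 and 405 (-0.61). Nmd3, the adaptor that takes the large subunit out of the nucleus, had 558 and 347 (-0.68). An export factor was therefore among the lower genes as well.
By contrast, the PeBoW complex, which is needed to mature the large subunit rRNA, had 0 of 3 members past 1.5-fold and a median of -0.40. Wdr12 differed by -0.47, Bop1 by -0.40, and Pes1 was nearest 0 in this step with 532 and 466 (-0.19). The remaining members lay between these, with the helicase Ddx18 at -0.55, Wdr74 at -0.52, Nop16 at -0.42 and Rrp1b at -0.33. Mrto4 was read only by a probe set that it shares with 2 pseudogenes, which had 527 and 338 (-0.64) and was not counted.

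The 4 proteins that act at several steps were all below control, with a median of -0.46. Lyar, a nucleolar zinc finger protein of rRNA transcription and processing, had 823 in control and 498 in silncMDSC (-0.72) and was the 1 of the 4 past 1.5-fold. Ddx21 is a helicase that works with both Pol I and snoRNAs. Of the abundant nucleolar proteins, Ncl (nucleolin) had 2052 and 1605 (-0.35). Npm1 (nucleophosmin) was nearest 0 with 4876 and 4458 (-0.13).

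Further probe sets of the same genes mostly lay on the same side, although they read the same 2 samples and are no independent evidence. In all, 34 members had another probe set above the floor, 49 probe sets together, of which 43 were below 0 and 13 at least 1.5-fold lower, 0 higher, with a median of -0.44. Among the second-brightest probe sets of all genes, 1.47% were at least 1.5-fold lower and the median was -0.01. That is not quite the same choice, because some members had more than 1 further probe set. Of 12 members at least 1.5-fold lower that had another probe set, 8 had one that was past 1.5-fold too. Nolc1 had -0.86 and -1.08 on its other probe sets, Dkc1 -0.93 and -1.01, Nop56 -0.84, Tsr1 -1.02 and Rrs1 -0.99. The -1.08 of Nolc1 came from a dim probe set with 80.2 in control and 37.3 in silncMDSC. It passed the floor on the control array alone, so its size is less certain.
Some genes were read unevenly. Heatr1 had -0.24 and 0.00 on its others, Noc3l -0.26, Polr1a -0.46 and Bysl -0.46, all short of 1.5-fold. Noc4l had -0.66, -0.47 and -0.41, of which only the first was past 1.5-fold. Nmd3 had -0.75 on one and 0.31 on another, which was dim with 69.9 in control and 86.7 in silncMDSC. The reverse also occurred. Ddx21 had another probe set with 654 and 356 (-0.88), Ncl had -0.41, -0.44 and -0.88, and Utp15 had one at -0.56. Wdr12 had one at -0.88, with 117 in control and 63.1 in silncMDSC, where it was below the floor. Nat10, above control on its brightest probe set, had 144 and 104 (-0.47) on the other, so its direction is not settled. For 25 members only 1 probe set was above the floor.

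**Figure D3:**
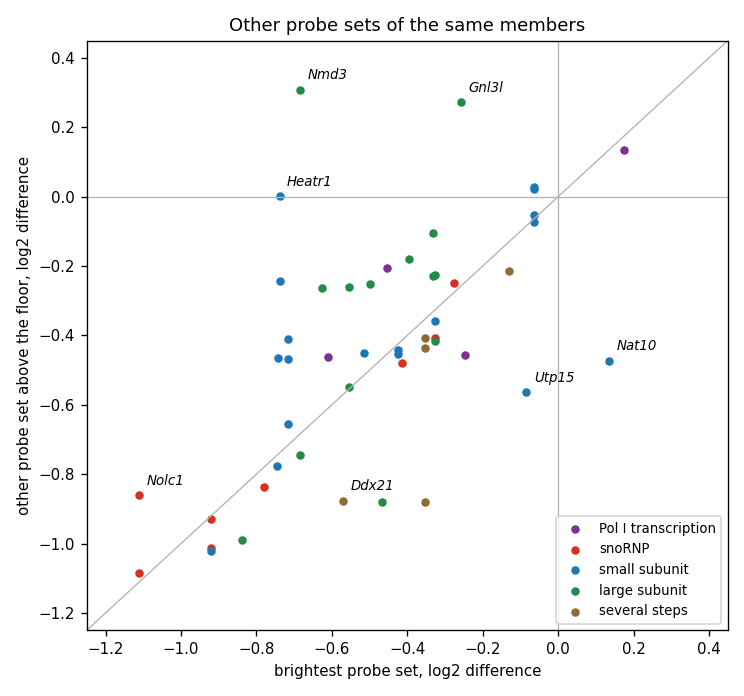
Each point is 1 of 49 further probe sets above the floor, with the difference of the gene's brightest probe set on the x axis and its own on the y axis (both log2, silncMDSC minus control), coloured by step. The diagonal marks equal values, and 43 of the 49 lie below 0, and the 6 above 0 include one of Nmd3 (0.31) and one of Gnl3l (0.27).

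The rest of the assembly pathway, read from lists of 105 genes that are not members, was lower too but by less. Of 100 above the floor, 86 were below control, 10 at least 1.5-fold lower and 0 higher, with a median of -0.28. These lists leave out the genes already picked as members, so a smaller median follows in part from that choice. Small subunit factors had 5 of 33 at least 1.5-fold lower and a median of -0.27, among them Pno1, the partner of Nob1, with 832 and 469 (-0.82), and the t-UTP proteins Utp4 (-0.81) and Nol11 (-0.70), and Pdcd11 (-0.66).
Large subunit factors had 2 of 35 and a median of -0.32. Nol8 had 299.8 and 163 (-0.87) and Nifk differed by -0.63, whereas Nop53 was higher with 1351 and 1639 (0.28). The snoRNP assembly factors had 1 of 8 and a median of -0.42, with Znhit6 at -0.70 and Naf1 at -0.57. The exosome, which trims rRNA ends, had 2 of 14 and a median of -0.26, with the nuclease Dis3 at 427 and 243 (-0.81) and Exosc1 at -0.65. Other Pol I factors had 0 of 10 and a median of -0.17, from Taf1d (-0.56) and Cd3eap (-0.44) to the termination factor Ttf1 (0.13).

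The mRNAs of the ribosomal proteins did not follow the assembly factors. Ribosomal protein, rRNA and finished subunits were not measured. Of 42 ribosomal protein genes above the floor, 33 were above control and 9 below, 1 was at least 1.5-fold lower and the median was 0.02. That 1 was Rpl12, with 144 and 86.7 (-0.73). For most of these genes, however, the probe sets were near the top of the intensity scale, up to 10579, where a difference is easily compressed, and this was not tested. Of 79 listed ribosomal protein genes, 44 had a probe set of their own.
Of the genes of the other RNA polymerases, 0 were past 1.5-fold, a call that only 1.42% of all genes received on the lower side. Pol III factors had a median of -0.10 over 17 genes, 13 of them below control, from Polr3e (-0.45) to Polr3gl (0.34), with the Pol III repressor Maf1 at 0.27. Pol II subunits had a median of -0.17 over 10 genes, 9 of them below control, which was as low as the other Pol I factors. Second-brightest probe sets gave 0.11 over only 2 Pol II subunits and 0.01 over 7 Pol III factors, so the genes read were not the same. Myc, which encodes the transcription factor named above, had 741 and 430 (-0.78).

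**Figure D4:**
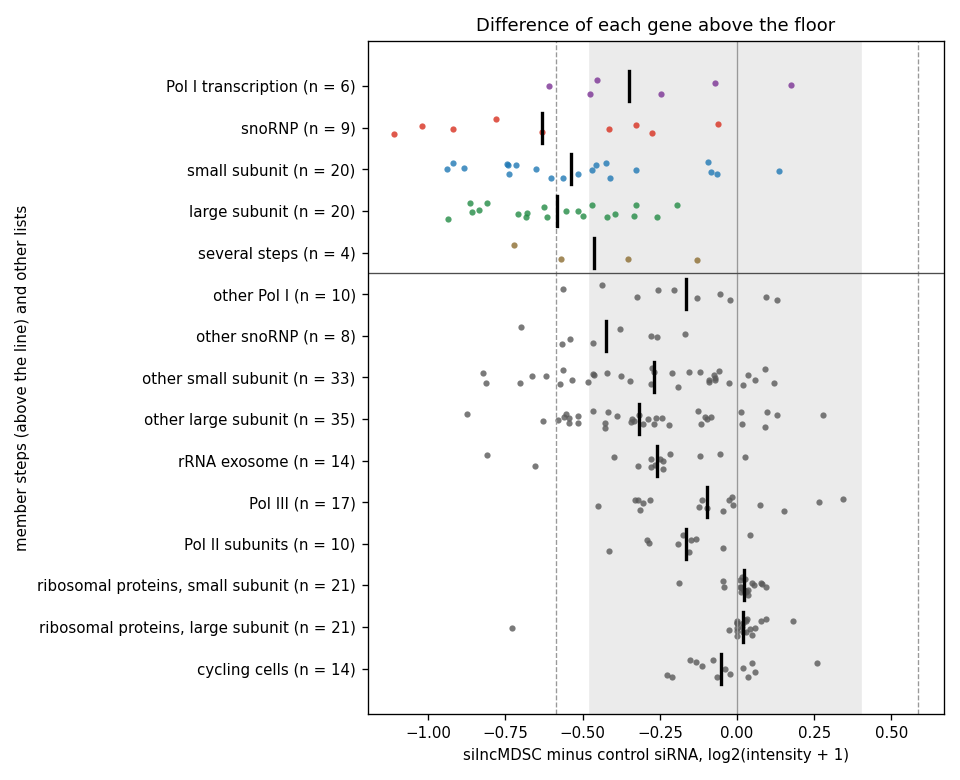
Each point is 1 gene above the floor, with its silncMDSC minus control difference on the x axis (log2) and 1 row per member step (above the line) or other list (below it). Black bars are medians, grey shading is the central 95% of all genes (-0.48 to 0.40) and dashed lines mark 1.5-fold, and the member medians run from -0.63 for snoRNP to -0.35 for Pol I while the ribosomal proteins and cycling cells lie near 0.

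Genes of cycling cells differed little beside these members. Of 14 above the floor, from replication and mitosis, 9 were below control, 0 were at least 1.5-fold apart and the median was -0.05. Their summed intensities were 24072 in control and 23228 in silncMDSC, and differences ran from Mcm2 (-0.23) to Ccnb2 (0.26). The replication genes among them, such as Mcm2, Mcm3 and Mcm5, were all below control, at -0.23 to -0.11, and the other genes lay on both sides of 0. Markers of other cell types differed between the same cultures. Macrophage markers had 5 of 11 at least 1.5-fold lower and a summed intensity of 18857 in control and 16147 in silncMDSC, dendritic cell markers had 4 of 10 at least 1.5-fold higher (16688 and 22585), and eosinophil markers had a median of 0.46 over 4 of 6 (3084 and 4313). Mast cell and basophil markers summed to 6766 and 7311 over 6 of 8, lymphoid markers to 1932 and 2152 over 7 of 8 with 1 at least 1.5-fold higher, and erythroid markers to 257 and 283 over 2 of 8. The part of any of these cells in the lower values of the ribosome assembly genes was not tested. The labelled spikes of the arrays were slightly higher in silncMDSC, with a median of 0.11 over 18 hybridisation probe sets and 0.16 over 27 poly-A probe sets. The values were not adjusted to the spikes, and what this means for the members was not tested. The 3′ minus 5′ differences of beta-actin and Gapdh, a sign of RNA integrity, moved by 0.08 and 0.02.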

How the data were processed

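RNA of both cultures was made into biotin-labelled cRNA from 6 µg of total RNA per the labels. The authors deposited intensities per probe set on a linear scale, and the submitters' processing notes name RMA. How RMA values were returned to the linear scale is not stated in the sources used here, and the scanner files were not used.

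Of 45037 probe sets without the 64 Affymetrix controls, 34945 had 1 gene symbol, 932 several and 9160 none in the platform annotation, and only the first kind was used. The Entrez identifiers of the 59 members read carried the same symbols in the RefSeq table. For each gene the single-symbol probe set with the highest mean was taken. The floor was the pooled median of the 2 arrays over these probe sets without controls, and called means at least 1.5-fold apart. The study's methods name limma, which needs replicates, so no test was run.

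Members and lists were chosen with earlier results of these data known. All members may be named, those at least 1.5-fold apart, nearest 0 or above 0 in their step with both values, together with up to 4 genes of each other list and Myc. A few further members are given with both values to complete a complex. Each result was recomputed with the arrays centred, a loess trend removed (span 0.3), quantile normalization, a pseudocount of 16, other floors, other choices of probe set and other fold thresholds. The calculation was tested on simulated data with less noise than the arrays and with changes made only in bright genes. That checks the code and says nothing about calls near 1.5-fold or near the floor. Python 3.11.15, numpy 2.4.6, pandas 2.3.3 and statsmodels 0.14.6 were used.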

Additional observations from a re-analysis of the deposited data

How the results depend on the processing

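The median of the members stayed below 0 under the 10 other settings of normalization, pseudocount, floor and probe set, between -0.52 and -0.45, and was -0.53 without Polr1c, the member farthest from it. Of 240 recomputed differences of the 26 members at least 1.5-fold lower, 240 kept their sign and 223 stayed past 1.5-fold. A changed floor cannot alter a difference, and centring the arrays shifted each by only 0.002. Part of the 240 therefore repeats the main values, and members that a setting left unread are not among them. With the second-brightest probe set, which only 34 members have, 10 were at least 1.5-fold lower, where 1.47% of all genes read this way were, and 32 were below 0. The large subunit median was then -0.26 over 10 genes, nearer 0 than the Pol I median of -0.33, so the order of these steps turned. Without probe sets that can cross-hybridise, 23 of the 57 members still read were at least 1.5-fold lower, where 1.45% of all genes were. At 2-fold 2 members were lower, against 0.134% of all genes. At 1.3-fold 42 members were lower, but the share of all genes was not counted at that threshold, so nothing is read from this count. Of 186 recomputed medians of the other lists, 4 moved by more than the spread of all differences. With the second-brightest probe set the values were -0.23 for other snoRNP (1 gene), -0.07 for other small subunit (16 genes) and 0.11 for Pol II subunits (2 genes). Fewer genes have such a probe set, so these are not the same genes as in the full lists. Without probe sets that can cross-hybridise, the dendritic cell markers had 0.64 over 9 genes. The cause of these moves was not tested. No paired analysis was possible because each group held 1 array.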
